A study of Mus musculus with 12 samples.

Results

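The homeostatic microglia genes P2ry12, Tmem119, Cx3cr1, Csf1r, Aif1, Trem2, Tyrobp and Siglech were examined in bulk RNA sequencing of mouse cortex. They were chosen by gene symbol, and all 8 were found among the 33024 gene symbols of the count table. Wildtype C57BL/6 mice, 30 days of age at the start, drank for 35 days either from 2 bottles of water (Control, 7 mice, labelled vehicle) or, for 12 h of each dark phase, from a bottle of water and a bottle of 20% ethanol (EtOH, 5 mice). All mice were then kept without ethanol for 14 days, underwent behavioural tests and were perfused with saline before the cortex was frozen, so that the samples show a state after abstinence and not during drinking. The sex of the mice was not given in the labels used here. Whether expression of these genes differed between ethanol-administered and water-drinking mice was asked of 12 libraries, 1 per mouse.

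Microglia are the resident macrophages of the brain. Under normal conditions they survey the tissue with motile processes and carry a set of surface receptors. P2RY12 senses nucleotides released by neighbouring cells, CX3CR1 binds the neuronal chemokine fractalkine, CSF1R conveys the survival signals of CSF1 and IL-34, and TREM2 binds lipids and signals through the adaptor DAP12, the product of Tyrobp. When microglia become activated, several of these homeostatic genes are known to be lowered while genes of lysosomes, phagocytosis and inflammation are raised.

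All 8 genes had a lower mean in the ethanol-administered mice, and the differences were small. Tmem119, Trem2 and Csf1r fell, with log2 fold changes of -0.32, -0.29 and -0.15, while P2ry12, Cx3cr1, Aif1, Tyrobp and Siglech did not pass the test (edgeR quasi-likelihood test, Benjamini-Hochberg adjusted p under 0.05 over all 16059 genes tested). The 3 of 8 genes called lower stand beside 11.6% of all genes tested that were called lower, 12.1% that were called higher and so 23.7% called in either direction. The median log2 fold change over the 8 genes was -0.19, and over all genes tested it was 0.00. The falls were short of 0.5 on the log2 scale, a minimum with which 4.09% of all genes tested were called lower, 4.2% higher and 8.29% in either direction. In bulk tissue, fewer microglia and less RNA per microglial cell cannot be told apart.

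**Figure D1:**
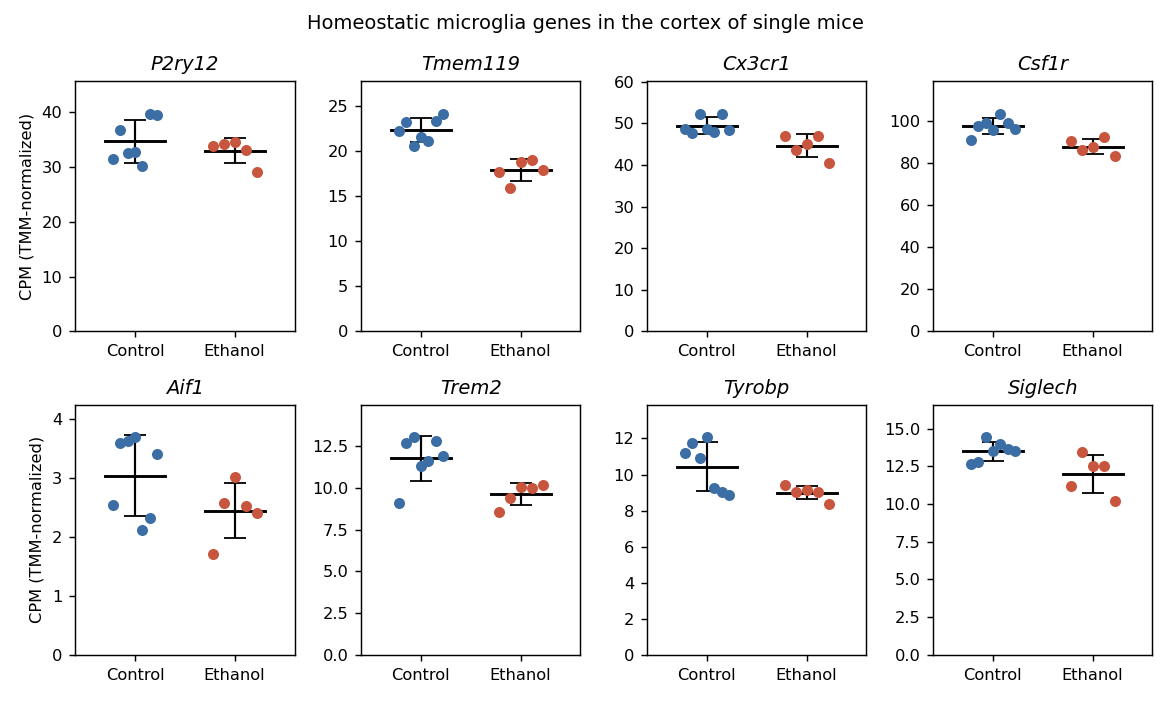
Level of each homeostatic gene in each mouse, in CPM (counts scaled to library size) after TMM normalization, with 1 panel per gene and a vertical axis from 0. Points are mice in the order of their labels, horizontal lines are means and error bars are SD (7 Control, 5 EtOH); the groups do not overlap for Tmem119 and Cx3cr1 and overlap for the other 6 genes.

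Total counts per library lay between 31768076 and 42183029, so that 3 counts, taken as the floor, amount to 0.0711 to 0.0944 CPM by the totals alone. All other CPM values were scaled to library size with edgeR's TMM factors as well. Control mouse 5 and EtOH mouse 1 were sequenced deeper than the others, and with both left out Tmem119 and Cx3cr1 were called (adjusted p = 0.0434 for Cx3cr1), while Trem2 (adjusted p = 0.0876) and Csf1r (adjusted p = 0.0515) lost their call. The tissue label was checked against marker lists. Neuron and cortical layer markers were well expressed in both groups, but a list of 15 striatal markers summed to between 1371 and 3105 CPM in the control mice and to between 403 and 512 CPM in the ethanol-administered mice, with 15 of 15 genes called lower. A list of 10 hippocampal markers summed to between 541 and 623 CPM in the control mice and to between 763 and 845 CPM in the ethanol-administered mice, with 8 of 10 called higher. The libraries thus differed between the groups in markers of neighbouring brain regions, and the part of this difference in the results on microglia genes was not tested.

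Upstream sequences are shown for Tmem119, the gene with the smallest p among the 8, and for Trem2, the called gene with the next largest fall. Each is the 250 bases before the start of the gene's canonical transcript in the Gencode release 39 annotation of GRCm39, read in the direction of the gene. Capitals mark TTCCTC, the reverse complement of GAGGAA, the core of the motif bound by PU.1, a transcription factor that microglia and macrophages need.
Tmem119, chr5:113938578-113938827, minus strand: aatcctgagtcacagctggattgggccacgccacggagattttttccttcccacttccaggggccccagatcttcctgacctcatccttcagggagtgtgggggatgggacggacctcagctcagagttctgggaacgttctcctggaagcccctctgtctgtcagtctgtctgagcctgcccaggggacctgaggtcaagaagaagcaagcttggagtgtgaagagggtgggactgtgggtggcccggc
Trem2, chr17:48653179-48653428, plus strand: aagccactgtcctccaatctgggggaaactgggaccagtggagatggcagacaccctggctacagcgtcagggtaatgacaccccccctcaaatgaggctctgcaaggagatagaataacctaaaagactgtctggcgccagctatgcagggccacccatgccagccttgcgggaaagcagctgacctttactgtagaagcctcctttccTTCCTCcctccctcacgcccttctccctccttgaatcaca
The core GAGGAA was searched on both strands. It was found once before Trem2, beginning 40 bases before the start, and it was not found before Tmem119. Of the 8 homeostatic genes, 3 held it in this window, Trem2 and Csf1r among them, while 22.9% of 21580 protein-coding promoters of the same length did. The longer form GAGGAAGT, which contains the core, was found in 0 of the 8 windows and in 2.08% of all promoters. The motif TGTGGT, bound by RUNX factors, was found in the windows of Cx3cr1, Csf1r and Siglech and in 13.02% of all promoters. The windows of Cx3cr1, Csf1r and Aif1 lie before the start of the canonical transcript but within the annotated gene, whose other transcripts start further upstream, and that of Siglech overlaps its gene by 6 bases. These are matches of letters and not binding sites.

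Among the receptors by which microglia sense their surroundings, Csf1r, the receptor tyrosine kinase on which microglial survival depends, had the highest counts, between 2738 and 4239 per mouse. Csf1r lies on chromosome 18 of GRCm39 from 61229714 to 61266535. In the 7 control mice its level ranged from 91.2 to 103.5 CPM with a median of 97.8 CPM, and in the 5 ethanol-administered mice it was 90.4, 86.0, 87.4, 92.2 and 83.2 CPM. The groups overlapped only in that the highest ethanol-administered mouse exceeded the lowest control mouse; the other 4 lay below every control mouse. Csf1r fell from 97.5 ± 3.80 CPM (SD, n = 7) to 87.8 ± 3.55 CPM (SD, n = 5), and its log2 fold change was -0.15 (standard error, SE, 0.05, 95% interval -0.24 to -0.06, edgeR adjusted p = 0.0284). The call was lost without EtOH mouse 3 (adjusted p = 0.0513) and without EtOH mouse 5 (adjusted p = 0.0780), and also with a filter of at least 1 count in any mouse (adjusted p = 0.0577).

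Cx3cr1, the fractalkine receptor, lies on chromosome 9 from 119877749 to 119898945. Its level in control mice lay between 47.8 and 52.3 CPM with a median of 48.6 CPM, and the ethanol-administered mice had 47.0, 43.5, 45.1, 47.0 and 40.5 CPM. Every ethanol-administered mouse lay below every control mouse, although the highest of them came within 1 CPM of the lowest control mouse. The means were 49.4 ± 2.01 CPM (SD, n = 7) and 44.6 ± 2.74 CPM (SD, n = 5), and the log2 fold change was -0.15 (SE 0.05, 95% interval -0.25 to -0.04). This did not pass the threshold (edgeR adjusted p = 0.0547), but it did without Control mouse 5 (adjusted p = 0.0344), without EtOH mouse 4 (adjusted p = 0.0494) and with DESeq2 (adjusted p = 0.0357). Of all genes tested, 4.96% were separated in this way with ethanol lower and 4.84% with ethanol higher, and of the 8 homeostatic genes 2 were (Cx3cr1 and Tmem119, both lower).

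P2ry12, the purinergic receptor that directs microglial processes towards released nucleotides, lies on chromosome 3 from 59123682 to 59170429. The control mice had between 30.2 and 39.8 CPM with a median of 32.8 CPM, and the ethanol-administered mice had 33.8, 34.3, 34.6, 33.2 and 29.1 CPM. The groups overlapped broadly: 4 of the 5 ethanol-administered mice lay above the control median, and the 3 highest values were those of Control mice 2, 6 and 7. The means were 34.7 ± 3.93 CPM (SD, n = 7) and 33.0 ± 2.27 CPM (SD, n = 5), and the log2 fold change was -0.07 (SE 0.08, 95% interval -0.23 to 0.08, edgeR adjusted p = 0.518). The interval allows a fall of up to 0.23 on the log2 scale and a rise of up to 0.08. The log2 fold change was -0.03 without EtOH mouse 5, -0.04 without Control mouse 6 or 7 and -0.11 without Control mouse 5.

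Trem2 and Tyrobp encode a lipid-binding receptor and the adaptor through which it signals. Trem2 lies on chromosome 17 from 48653429 to 48661175. In control mice its level was between 9.08 and 13.03 CPM with a median of 11.9 CPM, and the ethanol-administered mice had 8.57, 9.42, 10.1, 10.01 and 10.1 CPM. All ethanol-administered mice were below 6 of the 7 control mice, and the exception was Control mouse 1, which had 9.08 CPM where the next control mouse had 11.3 CPM. Trem2 fell from 11.8 ± 1.35 CPM (SD, n = 7) to 9.64 ± 0.665 CPM (SD, n = 5), and its log2 fold change was -0.29 (SE 0.09, 95% interval -0.47 to -0.11, edgeR adjusted p = 0.0291). The call was lost without Control mouse 2 (adjusted p = 0.0561), without Control mouse 3 (adjusted p = 0.0591) and without EtOH mouse 1 (adjusted p = 0.0853).

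Tyrobp lies on chromosome 7 from 30113170 to 30117010. Among control mice its level ranged from 8.85 to 12.1 CPM with a median of 10.9 CPM, and the ethanol-administered mice had 9.41, 9.05, 9.15, 9.01 and 8.39 CPM. The control mice fell into 4 that lay above every ethanol-administered mouse and 3 (mice 5, 6 and 7) that lay among them. The means were 10.4 ± 1.35 CPM (SD, n = 7) and 9.0 ± 0.376 CPM (SD, n = 5), and the log2 fold change was -0.21 (SE 0.09, 95% interval -0.39 to -0.03, edgeR adjusted p = 0.109). Receptor and adaptor did not vary together between mice: after removal of the group means, Pearson's r of Trem2 with Tyrobp was -0.28 over 12 mice.

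Siglech, a sialic acid-binding lectin that also signals through DAP12, lies on chromosome 7 from 55417926 to 55429195. Levels in control mice lay between 12.6 and 14.4 CPM with a median of 13.5 CPM, and the ethanol-administered mice had 11.2, 13.5, 12.5, 12.5 and 10.2 CPM. EtOH mouse 2 lay within the control range and the other 4 lay below every control mouse. The means were 13.5 ± 0.623 CPM (SD, n = 7) and 12 ± 1.27 CPM (SD, n = 5), and the log2 fold change was -0.17 (SE 0.08, 95% interval -0.32 to -0.02, edgeR adjusted p = 0.113). Without EtOH mouse 2 it was called lower, with a log2 fold change of -0.23 (adjusted p = 0.0494).

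Tmem119 encodes a membrane protein used to tell microglia from other macrophages, and Aif1 encodes IBA1, the calcium-binding protein stained in most histology of microglia. Tmem119 lies on chromosome 5 from 113931781 to 113938577. Its control level was between 20.5 and 24.1 CPM with a median of 22.2 CPM, and the ethanol-administered mice had 17.7, 15.9, 18.8, 19.0 and 17.9 CPM. Every ethanol-administered mouse lay below every control mouse, with a gap of more than 1 CPM between the groups. Tmem119 fell from 22.3 ± 1.33 CPM (SD, n = 7) to 17.9 ± 1.23 CPM (SD, n = 5), a difference of -19.8% of the control mean, and its log2 fold change was -0.32 (SE 0.07, 95% interval -0.45 to -0.19, edgeR adjusted p = 0.00206). It was called lower in all 12 fits that left out 1 mouse, where its log2 fold change lay between -0.34 and -0.29.

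Aif1 lies on chromosome 17 from 35387384 to 35395053. It had the lowest counts of the 8 genes, between 73 and 118 per mouse. Control levels lay between 2.12 and 3.69 CPM with a median of 3.40 CPM, and the ethanol-administered mice had 1.71, 2.58, 3.01, 2.52 and 2.40 CPM. The groups overlapped, and the lowest mouse of each group was its most deeply sequenced one. The means were 3.04 ± 0.682 CPM (SD, n = 7) and 2.44 ± 0.469 CPM (SD, n = 5), a difference of the same size as that of Tmem119 (log2 fold change -0.32) with a larger error (SE 0.18, 95% interval -0.67 to 0.04, edgeR adjusted p = 0.214). Without EtOH mouse 1 the log2 fold change of Aif1 was -0.20.

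**Figure D2:**
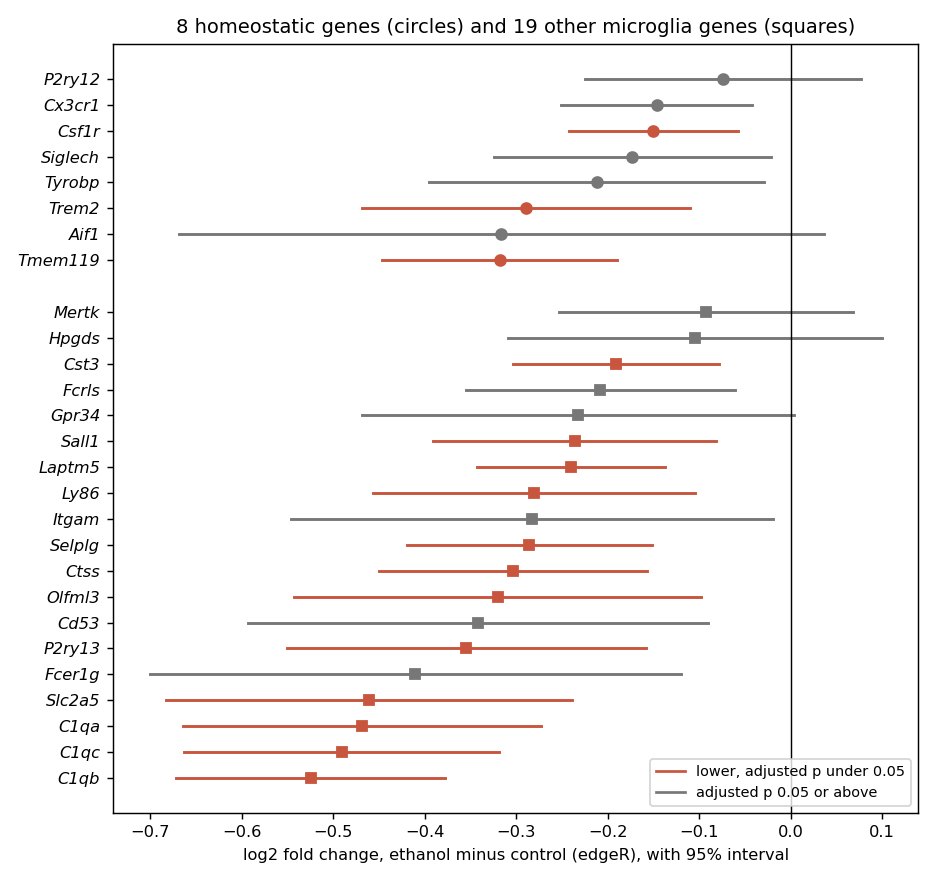
Log2 fold change (ethanol minus control, edgeR) with its approximate 95% interval on the horizontal axis, for the 8 homeostatic genes (circles, above) and 19 of the 20 other genes typical of microglia (squares, below); red marks an adjusted p under 0.05. All 27 estimates lie below 0, from -0.52 for C1qb to -0.07 for P2ry12, and 3 of the 8 and 12 of the 19 are red.

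The precision of these values differed between the genes. Counting error alone gave a coefficient of variation between 1.77% for Csf1r and 11.0% for Aif1. Among control mice, the spread of P2ry12 was 11.3% where counting gave 2.97%, and that of Siglech was 4.62% where counting gave 4.76%. P2ry12 thus varied between control mice by several times its counting error, and Siglech by no more than it, whereas among ethanol-administered mice Siglech varied by 10.6% with 4.93% from counting.

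Levels were compared between genes only per length, as CPM per kilobase of the canonical transcript. In the control mice the order was Tyrobp (17.2 ± 2.23), Csf1r (16.1 ± 0.627), P2ry12 (14.5 ± 1.64), Cx3cr1 (13.2 ± 0.534), Trem2 (10.8 ± 1.24), Tmem119 (9.90 ± 0.589), Siglech (6.19 ± 0.286) and Aif1 (0.888 ± 0.199; all SD, n = 7). The ranges of neighbours overlapped from Tyrobp down to Cx3cr1 and between Trem2 and Tmem119, whereas Cx3cr1 and Trem2, Tmem119 and Siglech, and Siglech and Aif1 did not overlap. The order of the means was the same in the ethanol-administered mice. It depended on the length used for Trem2, which took place 5 with the canonical transcript (1088 bases) and place 7 with all its annotated exons (4946 bases).

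**Figure D3:**
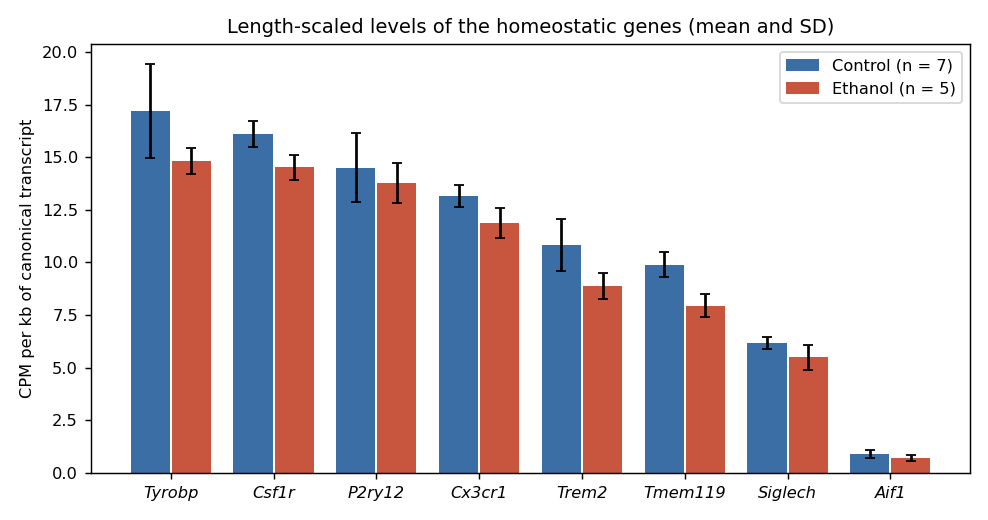
Mean level of each homeostatic gene in CPM per kilobase of its canonical transcript (vertical axis from 0), in Control (blue, n = 7) and EtOH mice (red, n = 5), with SD as error bars. The genes stand in the same order in both groups, from Tyrobp to Aif1.

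Differences of each gene from the mean of the other 7, taken in each mouse on the log2 CPM scale, were used to describe whether the genes kept their proportions. P2ry12 stood 0.97 ± 0.16 (SD, n = 7) above the others in the control mice and 1.12 ± 0.09 (SD, n = 5) above them in the ethanol-administered mice, and Tmem119 stood 0.24 ± 0.12 and 0.12 ± 0.12 above them. The change in this difference lay between -0.13 for Tmem119 and 0.16 for P2ry12, and for none of the 8 genes were the groups separated. Summed over the 8 genes, the level was between 229 and 252 CPM in the control mice and between 202 and 225 CPM in the ethanol-administered mice. EtOH mouse 5 had the lowest sum and was the lowest of all 12 mice for 5 of the 8 genes.

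Between mice of the same group the 8 genes varied together only weakly. After removal of the group means, Pearson's r over the 28 pairs of genes had a median of 0.15 over 12 mice and ranged from -0.35 for Tmem119 with Siglech to 0.57 for Cx3cr1 with Csf1r. These pairs share libraries and their depth. The genes whose residual pattern was most like the mean of the 8 were Poglut1, Cdc42, Alg3, Selenow, Aspdh, 0610009B22Rik, Pgm1, Rps26, Zdhhc13 and Ndufa7, with r between 0.85 and 0.90 over 12 mice. None of these belongs to a microglia list. For 20 other microglia genes the median r was 0.47, and over all 16051 other genes tested it was -0.002. Over those 16051 genes r ranged from -0.91 to 0.90, so the negative extreme was as large as the positive one. The genes named above are the top of this range, and whether they follow the 8 genes beyond chance was not tested.

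A list of 20 other genes typical of microglia was described in the same way. All 20 genes passed the expression filter, 13 were called, all of them lower (edgeR adjusted p under 0.05), and the median log2 fold change was -0.28. All 20 had a negative log2 fold change. Beside the counts of this list and those below, 11.6% of all genes tested were called lower and 12.1% higher. Groups without overlap, ethanol lower, were found for 4.96% of all genes tested. These lists were chosen with earlier results of the same data known. The 3 chains of the complement starter C1q, which microglia make in the brain, came first by p. C1qb fell from 43.4 ± 4.95 CPM (SD, n = 7) to 30.1 ± 1.499 CPM (SD, n = 5), and its log2 fold change was -0.52 (SE 0.08, edgeR adjusted p = 7.84e-05). For C1qc and C1qa the log2 fold changes were -0.49 and -0.47. The lysosomal membrane gene Laptm5 (-0.24), the selectin ligand Selplg (-0.29) and the cathepsin Ctss (-0.30) were also called lower, whereas the orphan receptor Gpr34 had a log2 fold change of -0.23 with an adjusted p of 0.173.

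Ligands of the homeostatic receptors come mainly from neurons and astrocytes. Il34, the neuronal ligand of CSF1R, fell from 57.1 ± 3.86 CPM (SD, n = 7) to 43.4 ± 6.24 CPM (SD, n = 5), with no overlap of the groups, and its log2 fold change was -0.40 (SE 0.08, edgeR adjusted p = 0.00175). The other CSF1R ligand, Csf1, had 23.9 ± 2.36 CPM (SD, n = 7) and 26.5 ± 2.09 CPM (SD, n = 5), which is not a called difference (log2 fold change 0.15, edgeR adjusted p = 0.145). Cx3cl1, which encodes fractalkine, fell from 1105 ± 109 CPM (SD, n = 7) to 859 ± 91.7 CPM (SD, n = 5), and the log2 fold change was -0.36 (edgeR adjusted p = 0.00255). These 2 of the 5 genes in the list were called, and Tgfb1 (-0.14) and Clu (0.02), a lipoprotein bound by TREM2, were not. Without Control mouse 6, 1 gene of the list was called higher.

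Downstream of Tyrobp, 3 of 9 immunoreceptor signalling genes tested were called, all lower. Blnk, a linker that couples SYK to phospholipase C, fell from 11.7 ± 2.63 CPM (SD, n = 7) to 5.04 ± 0.852 CPM (SD, n = 5), and its log2 fold change was -1.21 (SE 0.16, edgeR adjusted p = 2.88e-05), with all 5 ethanol-administered mice below every control mouse. Inpp5d, an inositol phosphatase that restrains this signalling, was also called lower, with a log2 fold change of -0.32. Syk (-0.03) and Plcg2 (0.13) were not called. The list summed to between 51.2 and 60.2 CPM in the control mice and to between 41.7 and 46.7 CPM in the ethanol-administered mice, without overlap. The mean sum went from 55.8 to 43.7 CPM, and Blnk alone went from 11.7 to 5.04 CPM within it. As 6 of the 9 genes tested were not called, the sum does not show a fall of the whole list.

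Around P2ry12, 3 of 10 nucleotide and adenosine genes were called lower and 1 higher. Entpd1 and Nt5e, the ectoenzymes that turn nucleotides into adenosine, had log2 fold changes of -0.36 and -0.76, and Kcnk13, the potassium channel of microglial surveillance, of -0.45. Adora1, the adenosine receptor abundant in neurons, was called higher (0.17). Among 10 transcription factors, Spi1, which encodes PU.1, was called lower (-0.46, edgeR adjusted p = 0.0272) and Smad3 higher (0.25), while Irf8 was not called (-0.11, edgeR adjusted p = 0.447). The call of Spi1 was lost without Control mouse 2 or 4 or EtOH mouse 1, 4 or 5, and that of Smad3 without Control mouse 3 or 4 or EtOH mouse 1 or 4, while 2 factors were called lower without Control mouse 3 and 2 higher without EtOH mouse 2. In a list of 8 genes of transforming growth factor beta signalling, the pathway that maintains the homeostatic state, 1 was called, Smad2 (0.19, higher), and it was not called without EtOH mouse 1 or 2. The receptor gene Tgfbr1 (-0.08) and the ligand gene Tgfb1 were not called, and 1 gene of this list was called lower with DESeq2 and without Control mouse 5 or 6 or EtOH mouse 4.

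Genes known to be raised in disease-associated microglia were mostly not higher in the bulk cortex. These values, like those of Smad2 and Smad3, do not show which cells held the RNA. Of 18 such genes, 14 were tested, 6 were called lower and 1 higher, with a median log2 fold change of -0.16. Those called lower were the lysosomal cathepsins Ctsb (-0.32), Ctsz (-0.42) and Ctsd (-0.23), the lysosomal glycoprotein Cd68 (-0.43), the lysozyme Lyz2 (-0.55) and B2m, the light chain of class I antigen presentation (-0.35). Timp2, an inhibitor of metalloproteinases, was called higher (0.41). Lpl (0.12) and Spp1 (-0.11) were not called, and Cst7, Itgax, Clec7a and Lgals3 were too low to be tested. Of 15 inflammatory genes, 6, among them Tnf, Il6 and Ccl2, were too low to be tested; Tlr2 was called lower (-0.93) and Ptgs2 higher (0.39), and Il1a and Il1b were not called (edgeR adjusted p = 0.0502 and 0.925). The call of Tlr2 was lost without Control mouse 4 and without EtOH mouse 1, and 2 genes were called lower without Control mouse 1, 5 or 7.

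The 10 lists on microglia, macrophages, leukocytes, ligands and signalling hold 115 genes, each counted once. Of the 96 tested, 32 were called lower, 58 were not called and 6 were called higher, a number that was 3 without EtOH mouse 1. The share called lower was 33.3%, beside 11.6% of all genes tested, and the median log2 fold change was -0.18.

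Markers of other immune cells were measured beside these values. Of 10 border-associated macrophage markers, 8 were tested and 3 called lower, namely Cd163 (-1.22), Cbr2 (-0.94) and F13a1 (-0.89), while Mrc1 was not (-0.42, edgeR adjusted p = 0.363); the list summed to between 25.2 and 37.8 CPM in the control mice and to between 17.5 and 29.6 CPM in the ethanol-administered mice. Blood leukocyte markers summed to between 1.502 and 5.07 CPM in the control mice and to between 1.73 and 4.73 CPM in the ethanol-administered mice. Of these 10 markers 6 were too low to be tested, Ccr2 and Cd3e among them, S100a9 and Cd79a were not called, and Itgal, an integrin chain, was called higher (0.63), a call lost without Control mouse 3, EtOH mouse 1 or EtOH mouse 5. Without EtOH mouse 2, 2 leukocyte markers were called lower. No marker of these lists was at 0 in all mice. Red cell markers were highest in Control mouse 6, at 128 CPM, and without that mouse 3 of 5 were called higher. Of 8 endothelial markers 1 was called lower (2 without Control mouse 5 or EtOH mouse 2 or 5), and of 6 pericyte markers 1 was called higher.

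Lists of the remaining cell types also held called genes. Oligodendrocyte markers summed to between 4642 and 6151 CPM in the control mice and to between 3107 and 5542 CPM in the ethanol-administered mice, with 9 of 10 called lower, among them Mbp (-0.50), which encodes a myelin protein. Of 10 astrocyte markers 4 were called higher, among them Gfap (0.77) and Aqp4 (0.27), and 1 lower (2 without Control mouse 6), of 6 precursor markers 2 higher and 1 lower, of 10 neuron markers 1 higher and 5 lower, and of 8 cortical layer markers 3 higher and 2 lower. Several of these small counts changed with single mice: higher calls of astrocyte markers were 2 without Control mouse 1 or 3 or EtOH mouse 5, and those of cortical layer markers were 1 without EtOH mouse 5. Those of precursor markers were 1 without Control mouse 2, 3 or 4 or EtOH mouse 1 or 3, and those of neuron markers were between 0 and 2 over the mice left out. The part of these lists in the results on microglia genes was not tested.

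**Figure D4:**
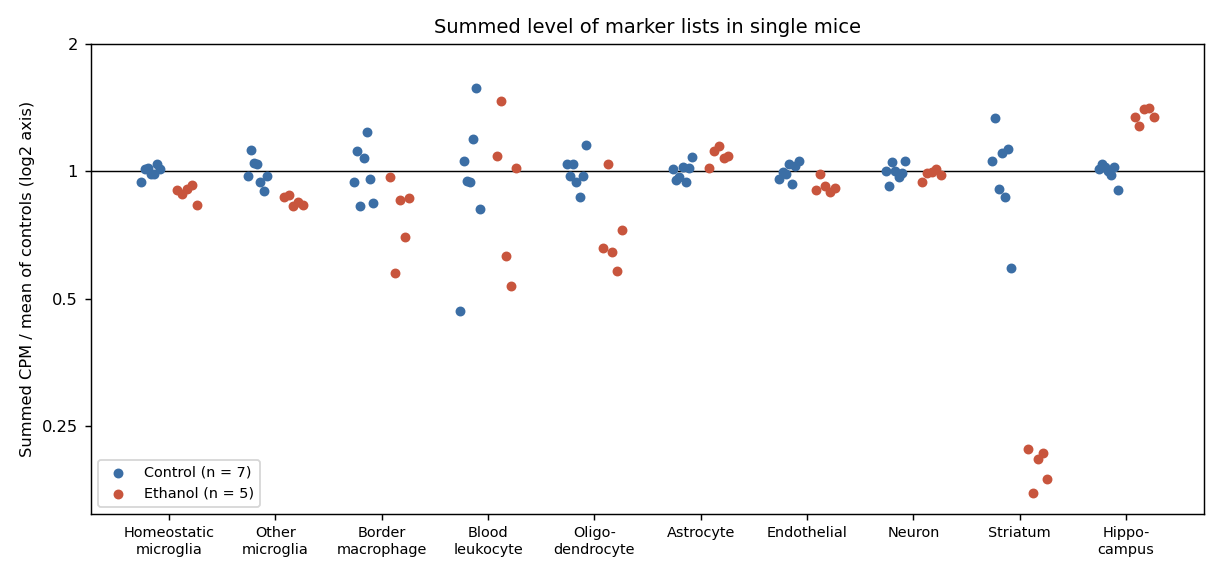
Summed CPM of each marker list in each mouse, divided by the mean of the control mice, on a log2 axis (blue, 7 Control; red, 5 EtOH). Ethanol-administered mice lie below every control mouse for both microglia lists and the striatal list and above every control mouse for the hippocampal list, while the other 6 lists drawn overlap. Most of the sum of the other microglia list is 1 gene, Cst3. Its means were 765.7 CPM (Control) and 670.7 CPM (EtOH), within mean sums of 1268.8 and 1079.5 CPM.

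The exons of P2ry12, Cx3cr1, Csf1r, Aif1 and Trem2 share positions with an annotated gene on the opposite strand (Med12l, Gm33858, Hmgxb3, Gm17705 and Gm65654 in that order), and those of Tmem119, Tyrobp and Siglech with none. Of the 45 genes that the naming rule selects from the companion lists, 25 share positions with another gene. Since the strand setting of the counting is not given in the sources used here, reads of such pairs cannot be told apart.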

How the data were processed

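Total RNA of 12 cortex samples was sequenced by BGI. After quality control with FastQC (0.11.9, per the submitters' processing notes), the authors used STAR for alignment to GRCm39, annotated with Gencode Release 28, and featureCounts for counting, and deposited estimated counts per gene symbol without normalization. In 61 symbols, none of the 8 genes among them, the deposited counts were not whole, and all were rounded. All 12 columns were matched to mice by name.

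Genes passing edgeR's filterByExpr (16059, all 8 among them) were compared with TMM factors and edgeR's quasi-likelihood test (R 4.3.3, edgeR 4.0.16, limma 3.58.1), without covariates; DESeq2 (1.42.0) and limma voom were alternatives, with other factors, filters, the replicate number as a block and mice left out. Genes were called at a Benjamini-Hochberg adjusted p under 0.05. Log2 CPM used a prior count of 2. Fits were tested on simulated data, where edgeR and limma voom rarely recovered small changes and DESeq2 recovered more of them, with more false calls. Each simulation changed 200 genes, where 3810 were called in the data, so these recoveries need not hold for the present comparison. The genes and lists were chosen with earlier results of these data known. From each microglia or macrophage list, at most the 6 called genes of smallest p and its first 2 tested genes are named, and Mbp, Aqp4 and Gfap are among the first of theirs. Some genes that the rule selects and some upstream sequences are not reported here. The 10 genes most like the 8 were taken by residual correlation. Positions are from Gencode release 39. P-values assume 1 library per mouse. Replicate numbers mark different mice. Libraries of a group all differed by more than sampling noise (chi-square over degrees of freedom at least 7.76 for every pair).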

Additional observations from a re-analysis of the deposited data

Results flagged for a closer look

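The highest or lowest mouse of a group was set well apart from the next one in 8 of 60 checks of homeostatic genes, list sums and totals, where chance gives about 3. EtOH mouse 5 had the lowest log2 CPM of P2ry12 among ethanol-administered mice (4.86, next 5.05). Control mouse 1 had the lowest log2 CPM of Trem2 among control mice (3.19, next 3.51). The log2 of the summed CPM of the nucleotide and adenosine genes was highest in EtOH mouse 5 (8.82, next 8.79), and that of the transcription factors was lowest in Control mouse 2 (9.71, next 9.84). Red cell markers were highest in Control mouse 6 (7.00, next 4.39), and hippocampal markers were lowest in Control mouse 7 (9.08, next 9.20). Total counts were highest in Control mouse 5 (40690223, next 32356913) and in EtOH mouse 1 (42183029, next 33313165).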

How the results depend on the processing

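The number of homeostatic genes called lower was between 2 and 4 under every alternative run, and none had a log2 fold change below -0.5. Tmem119 was called under every alternative, including each mouse left out. With at least 1 count in any mouse as the filter, Csf1r lost its call (-0.15). With the replicate block, Csf1r (-0.15) and Trem2 (-0.25) lost their call, Tyrobp was called (-0.29) and P2ry12 changed sign (0.0097); the replicate numbers are shared by different mice, and the correlation of deviations between same-numbered mice lay between -0.11 and 0.02, with 0 of 5 correlating best with their own number. Cx3cr1 was called with upper quartile factors (-0.15) and DESeq2 (-0.15). With both of the deepest libraries left out, Csf1r (-0.14) and Trem2 (-0.25) lost their call and Cx3cr1 was called (-0.17). With each mouse left out in turn, the log2 fold change lay between -0.17 and -0.13 for Csf1r, -0.34 and -0.24 for Trem2, -0.17 and -0.12 for Cx3cr1, -0.23 and -0.12 for Siglech, -0.25 and -0.17 for Tyrobp, -0.40 and -0.20 for Aif1, -0.34 and -0.29 for Tmem119, and -0.11 and -0.03 for P2ry12. In the 10 companion lists together, between 24 and 38 genes were called lower and between 3 and 7 higher, the lowest number of higher calls, 3, without EtOH mouse 1. The cause of these changes was not tested. Counting error was largest for Aif1 among the 8 genes.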
